A study of Mus musculus with 16 samples.

Results

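LLC1 is a line of Lewis lung carcinoma from the mouse. Tumour cells enriched from LLC1 tumours grown in mice were compared after treatment with MYCi975 and TMP195 together (the combination, Combo) and with TMP195 alone. The comparison asks what MYCi975 added when TMP195 was already present. It takes the 4 Combo and the 4 TMP195 libraries of the 16 in the series, replicates 1 to 4 in each group, by their labels. All genes were used that exceeded the lowest value of the table by 1 log2 unit or more in 4 or more of the 16 libraries, which kept 15715 of 24334 genes.

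Mice of all groups bore LLC1 tumours and were dosed for 16 days. The Combo group received MYCi975 and TMP195 and the TMP195 group TMP195 at 50 mg/kg. The MYCi975 group received MYCi975 at 50 mg/kg and the Vehicle group DMSO; these 8 libraries serve below to show the MYCi975 difference in the absence of TMP195. The dose of each compound within the combination, the strain, sex and age of the mice, and the way tumour cells were enriched are not given in the labels. LLC1 is a single cell line. Whether each library stems from a mouse of its own is not labelled, and p-values therefore reflect only the spread among libraries, some of which may be technical.

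MYC is a transcription factor that binds E-box DNA as a dimer with MAX and drives genes of ribosome production, nucleotide synthesis, glycolysis and mitochondria. MYCi975 is a small molecule that binds MYC and lowers its activity and protein level. TMP195 inhibits the class IIa histone deacetylases HDAC4, HDAC5, HDAC7 and HDAC9, which bind MEF2 transcription factors as co-repressors. In tumours of mice TMP195 is known for acting on macrophages and monocytes, and MYCi975 for altering the immune cells around a tumour.

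The labelled cell type was checked on its markers, which were more mesenchymal than epithelial. Vim, an intermediate filament, averaged 17.0 in Combo and 17.1 in TMP195 on the variance-stabilised log2 scale, and the epithelial keratin Krt8 averaged 10.7 in Combo and 10.4 in TMP195, whereas the epithelial adhesion molecules Epcam and Cdh1 lay close to the lowest value of 4.84 and were not tested. Markers of fibroblasts and pericytes were at high levels, with a list mean of 11.2 in Combo and 10.8 in TMP195. Leukocyte markers were mostly low or undetected, but Lyz2 reached 9.87 and Ptprc 8.95 in TMP195 replicate 1, where the median gene stood at 8.68. Of leukocyte markers, 10 of 12 general leukocyte, 10 of 17 macrophage, 10 of 12 neutrophil and 12 of 14 dendritic cell and MHC class II markers passed the filter. Fewer passed for lymphoid and mast cells, with 2 of 14 T and NK cell markers in the table, 1 of 5 B cell markers and 0 of 5 mast cell markers. The 8 libraries correlated with each other at rank coefficients of 0.966 to 0.989, and the median was 0.982 within groups and 0.981 between Combo and TMP195. On the first principal component of all 16 libraries, which held 21.2% of the variance, TMP195 replicate 4 scored 32.0 and the other 7 libraries of the comparison between -19.5 and 5.32. Replicates 4 of MYCi975 and Vehicle lay at the same end, at 26.6 and 33.2, so that 3 of the 4 libraries numbered 4 shared it and Combo replicate 4, at 5.32, did not. On the second component TMP195 replicate 1 scored -28.7 and MYCi975 replicate 3 -29.1, with the other 7 libraries of the comparison between -13.9 and 11.2. Values without these libraries are given where leaving them out moves a result. Depth per library is unknown.

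No gene passed the test for Combo against TMP195 (limma with Benjamini-Hochberg adjustment, 0 of 15715, 0.0%, smallest adjusted p = 0.0787). An unadjusted p under 0.05 was reached by 837 genes (5.33%), close to the share that the threshold itself allows, of which 391 were higher in Combo (2.49%) and 446 lower (2.84%). The 4 Combo values lay entirely above the 4 TMP195 values for 275 genes (1.75%) and entirely below them for 255 genes (1.62%). The median difference over all genes tested was 0.00 log2 units, 49.3% of genes had a difference below 0 and 50.7% above 0, and the median 95% confidence interval reached 0.33 to either side. Genes named below are therefore described by their values, and none of them is called changed. With limma's array quality weights, which gave TMP195 replicate 4 a weight of 0.464 and Combo replicate 3 a weight of 2.4, 65 genes were called (0.414%), 22 higher and 43 lower in Combo.

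The 10 genes lower in Combo with the smallest p included cell surface proteins, chemokines and enzymes. Cd93, a C-type lectin-like receptor of endothelium and myeloid cells, had the smallest p of all genes. Its values were 6.47, 6.56, 6.26 and 6.88 in Combo and 8.0, 7.57, 7.47 and 7.32 in TMP195. All 4 Combo libraries lay below all 4 TMP195 libraries, by -1.05 ± 0.16 (SE, n = 4 each, limma adjusted p = 0.0787), and the adjusted p ran from 0.0164 to 0.608 over the alternatives tried. Combo stood where the groups without TMP195 stood, since MYCi975 averaged 6.45 ± 0.13 and Vehicle 6.59 ± 0.14 (SD, n = 4 each), and TMP195 alone was high. The interaction, the MYCi975 difference with TMP195 minus that without it, was -0.92 for Cd93 (unadjusted p = 0.000864, limma adjusted p = 1.0).

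Gpcpd1, which cleaves glycerophosphocholine, was 10.13, 9.99, 10.05 and 9.92 in Combo and 10.47, 10.88, 10.66 and 10.62 in TMP195. The groups did not overlap and the difference was -0.63 ± 0.12 (SE, limma adjusted p = 0.325). Atp8b4, a phospholipid flippase, differed by -0.79, Clec4a2, an inhibitory lectin receptor of myeloid cells, by -0.69, and Rusc2, a vesicle traffic protein that binds Rab GTPases, by -0.66, each without overlap. Clec4a2 was 5.45, 5.66, 5.39 and 5.17 in Combo and 6.01, 6.27, 6.28 and 5.87 in TMP195. It passed the filter only through the TMP195 libraries. Lgals3, the secreted lectin galectin-3, differed by -0.60 and did not overlap either. Chemokines also belonged to the same 10 genes, with Ccl9 at -1.34, Cxcl3, which attracts neutrophils, at -1.40, and Ccl6 at -1.08, the only one of the 10 whose groups overlapped. Ccl9 read 6.92 in Combo replicate 2 and between 5.61 and 5.78 in the other Combo libraries, so 3 of 4 Combo libraries lay well below TMP195.

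The 10 genes higher in Combo with the smallest p had varied functions. Ror1, a receptor for the non-canonical ligand WNT5A, was 6.68, 6.68, 6.95 and 6.96 in Combo and 5.75, 6.02, 5.92 and 6.32 in TMP195. The groups did not overlap, with a difference of 0.81 ± 0.16 (SE, limma adjusted p = 0.325). Ncam1, a neural cell adhesion molecule, was 11.02, 10.82, 11.08 and 10.92 in Combo and 10.19, 10.17, 10.38 and 10.62 in TMP195, again without overlap, with a difference of 0.62 ± 0.13. TMP195 replicate 4 was the closest of its group to Combo for both genes.

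Genes of planar cell polarity were also among these 10 genes. Dchs1, a giant protocadherin that binds FAT4, was 7.40, 7.50, 7.91 and 7.64 in Combo and 6.79, 6.84, 6.94 and 6.89 in TMP195, and Fjx1, whose fly counterpart is a Golgi kinase acting on the Fat and Dachsous cadherins, differed by 0.60. The other 6 were Rnf182, a ubiquitin ligase, at 0.97, the homeobox gene Hoxc8 at 0.75, the zinc finger repressor Zbtb20 at 0.67, the lysophospholipid acyltransferase Mboat1 at 0.61, Bcl7c, a subunit of SWI/SNF chromatin remodellers, at 0.54, and Dusp2, a phosphatase of MAP kinases, at 0.48. All 10 were without overlap between groups. The 20 genes were taken for their small p, so their lack of overlap is a description. Clec4a2, Cxcl3 and most Ccl9 values in Combo, and Rnf182 in TMP195, lay near the lowest value of the table. Variance stabilisation compresses differences there.

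**Figure D1:**
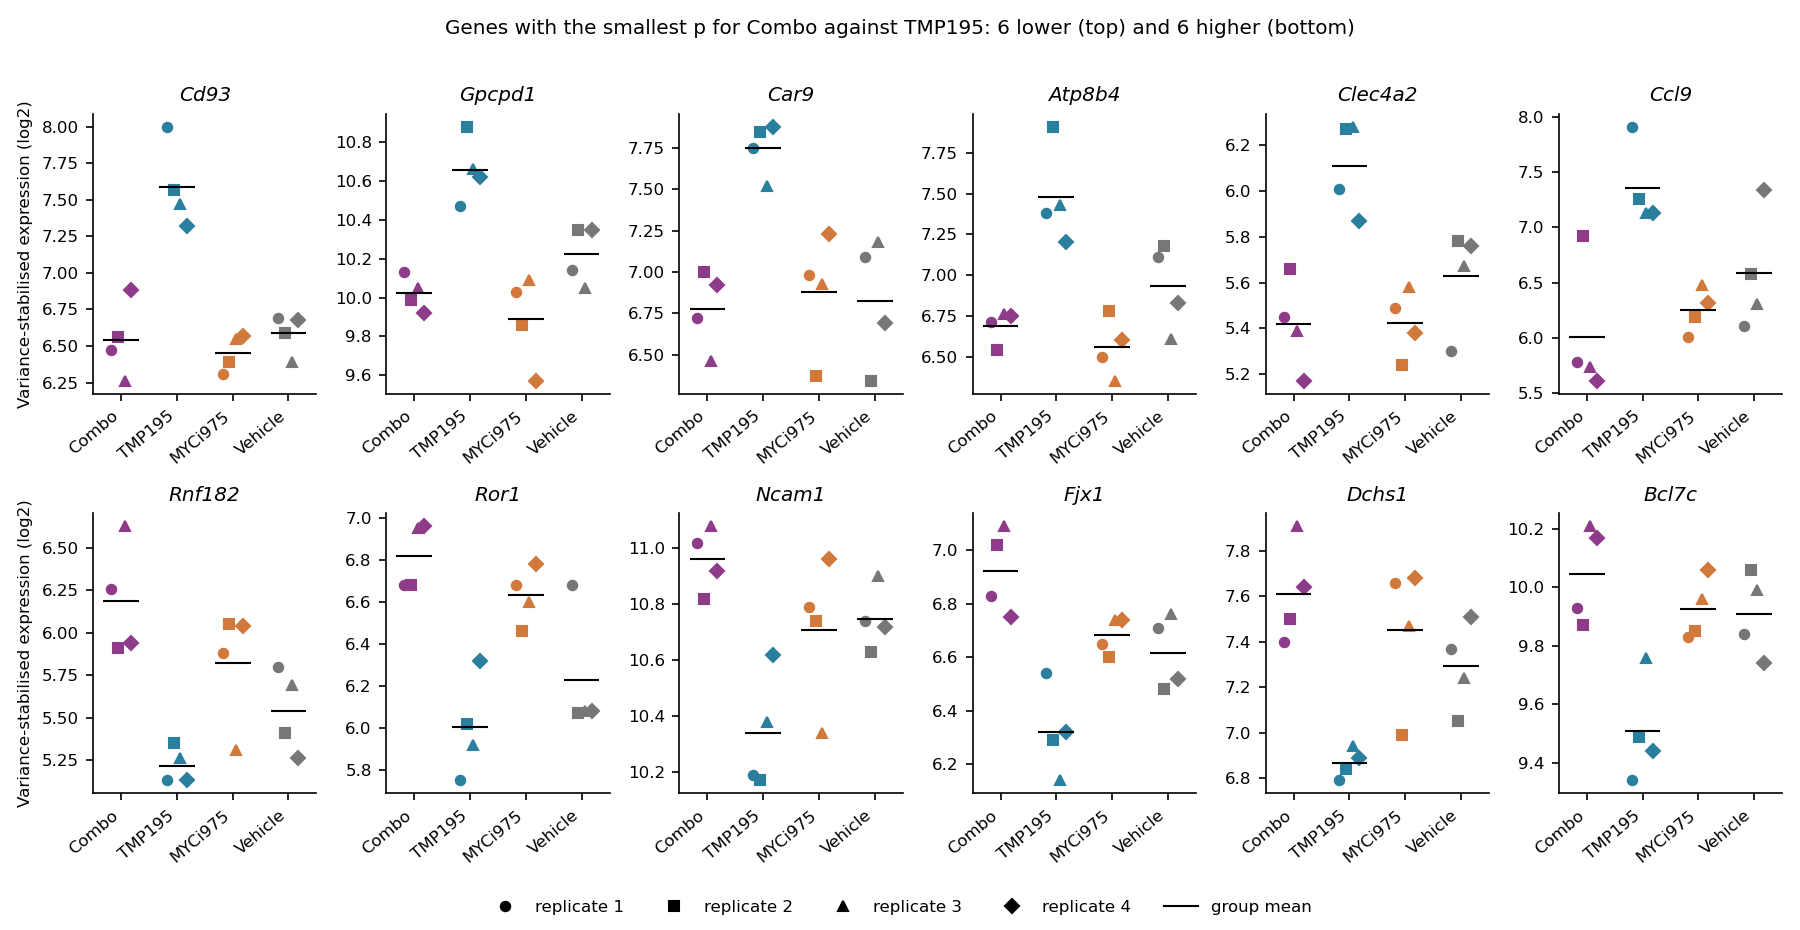
Variance-stabilised expression (log2, y axis, scaled per panel) of 12 genes in every library of the Combo, TMP195, MYCi975 and Vehicle groups, with a symbol per replicate number and a line at the group mean. The top row holds genes lower and the bottom row genes higher in Combo than in TMP195; for Cd93, Gpcpd1, Car9, Atp8b4 and Clec4a2 the 4 TMP195 libraries lie above the 12 others.

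The levels in all 4 groups show which group stood apart. For 6 of the 10 genes lower in Combo (Cd93, Gpcpd1, Car9, Atp8b4, Clec4a2 and Rusc2) the 4 TMP195 libraries lay above all 12 others, and for 2 of the 10 higher (Dchs1 and Dusp2) they lay below all 12. Over all 15715 genes the shares were 0.121% above and 0.0636% below. The choice by Combo against TMP195 used the TMP195 libraries, so these counts are no independent support. Clec4a2 moreover passed the filter only through its TMP195 libraries. TMP195 minus Vehicle, which shares the TMP195 libraries with the comparison, was 1.0 for Cd93, 0.92 for Car9, 0.43 for Gpcpd1 and -0.43 for Dchs1. Other genes differed from this pattern. For Lgals3 TMP195 minus Vehicle was 0.08, Combo minus Vehicle -0.52 and MYCi975 minus Vehicle -0.395, so that both groups with MYCi975 averaged below Vehicle. In the same order the differences were -0.03, 0.64 and 0.20 for Zbtb20, with Combo furthest from Vehicle. For Rnf182 they were -0.32, 0.65 and 0.28, and for Ror1 -0.23, 0.59 and 0.40, the Combo difference being the largest in size. Hoxc8 averaged 7.18 in Combo, 6.44 in TMP195, 6.44 in MYCi975 and 6.91 in Vehicle.

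The genes of the drug targets themselves were at similar levels. Myc was 12.17, 11.07, 11.22 and 11.56 in Combo and 12.04, 12.02, 11.60 and 11.67 in TMP195. Combo replicate 1 was the highest of the 8 libraries and the groups overlapped, with a difference of -0.33 ± 0.21 (SE, limma adjusted p = 0.999). The protein, which MYCi975 binds, was not measured. Max, the partner of MYC, differed by 0.03, Hdac4 by -0.20, Hdac5 by -0.04, Hdac7 by 0.02 and Hdac9 by -0.16, and the groups of each overlapped. The signs of Max, Hdac5 and Hdac7 turned under some of the alternatives.

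Genes of the MYC network, the partners and rivals of MYC, had a median of -0.17, with 7 of 10 lower in Combo, which was -0.07 without TMP195 replicate 4. The list of MYC target genes and those of ribosome production, nucleotide synthesis and cell division had medians closer to 0. Of 65 MYC target genes tested, 30 were lower in Combo (46.2%, against 49.3% of all genes), with a median of 0.01 that ran from -0.04 to 0.03 on leaving out single libraries, and the largest difference was -0.35 for Ppan, a ribosome assembly factor and the single member at an unadjusted p under 0.05. The number of MYC targets lower was 44 without Combo replicate 1 and 27 without TMP195 replicate 1. The medians were -0.03 for 48 ribosome biogenesis genes, -0.04 for 77 cytosolic ribosomal proteins, 0.04 for 26 genes of purine and pyrimidine synthesis, 0.02 for 45 of DNA replication and 0.02 for 40 of mitosis. Lower in Combo were 33 ribosome biogenesis genes (68.8%) and 55 cytosolic ribosomal proteins (71.4%). Without TMP195 replicate 4 these numbers were 39 and 38. For nucleotide synthesis, DNA replication and mitosis 10, 18 and 14 genes were lower. Rrp7a, an rRNA processing factor at 0.31, and Tyms, the thymidylate synthase at 0.35, were among the few at an unadjusted p under 0.05 in these lists. Values of single ribosomal protein genes are uncertain, since reads may be shared with their pseudogenes.

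Nuclear genes of the respiratory chain were likewise centred on 0, which bears on mitochondria, named in the study's title. The medians were 0.01 for 37 genes of complex I, 0.01 for 14 of complexes II and III, 0.05 for 12 of complex IV, -0.03 for 15 of complex V, 0.04 for 77 mitochondrial ribosomal proteins and 0.02 for 17 enzymes of the TCA cycle. Over these lists 2 genes reached an unadjusted p under 0.05: Uqcr10, a small subunit of complex III, at 0.31, and Mrps18b, a mitochondrial ribosomal protein, at -0.22. Of the 13 protein-coding genes of the mitochondrial genome 10 were lower in Combo, with a median of -0.20, and none was at an unadjusted p under 0.05; the median was 0.22 with the leukocyte marker level as a covariate, so its sign was not stable. The mitophagy receptors Bnip3 and Bnip3l, which are also HIF targets, stood outside their list of 20 mitochondrial dynamics genes at -0.66 and -0.40, where the list's median was 0.01.

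**Figure D2:**
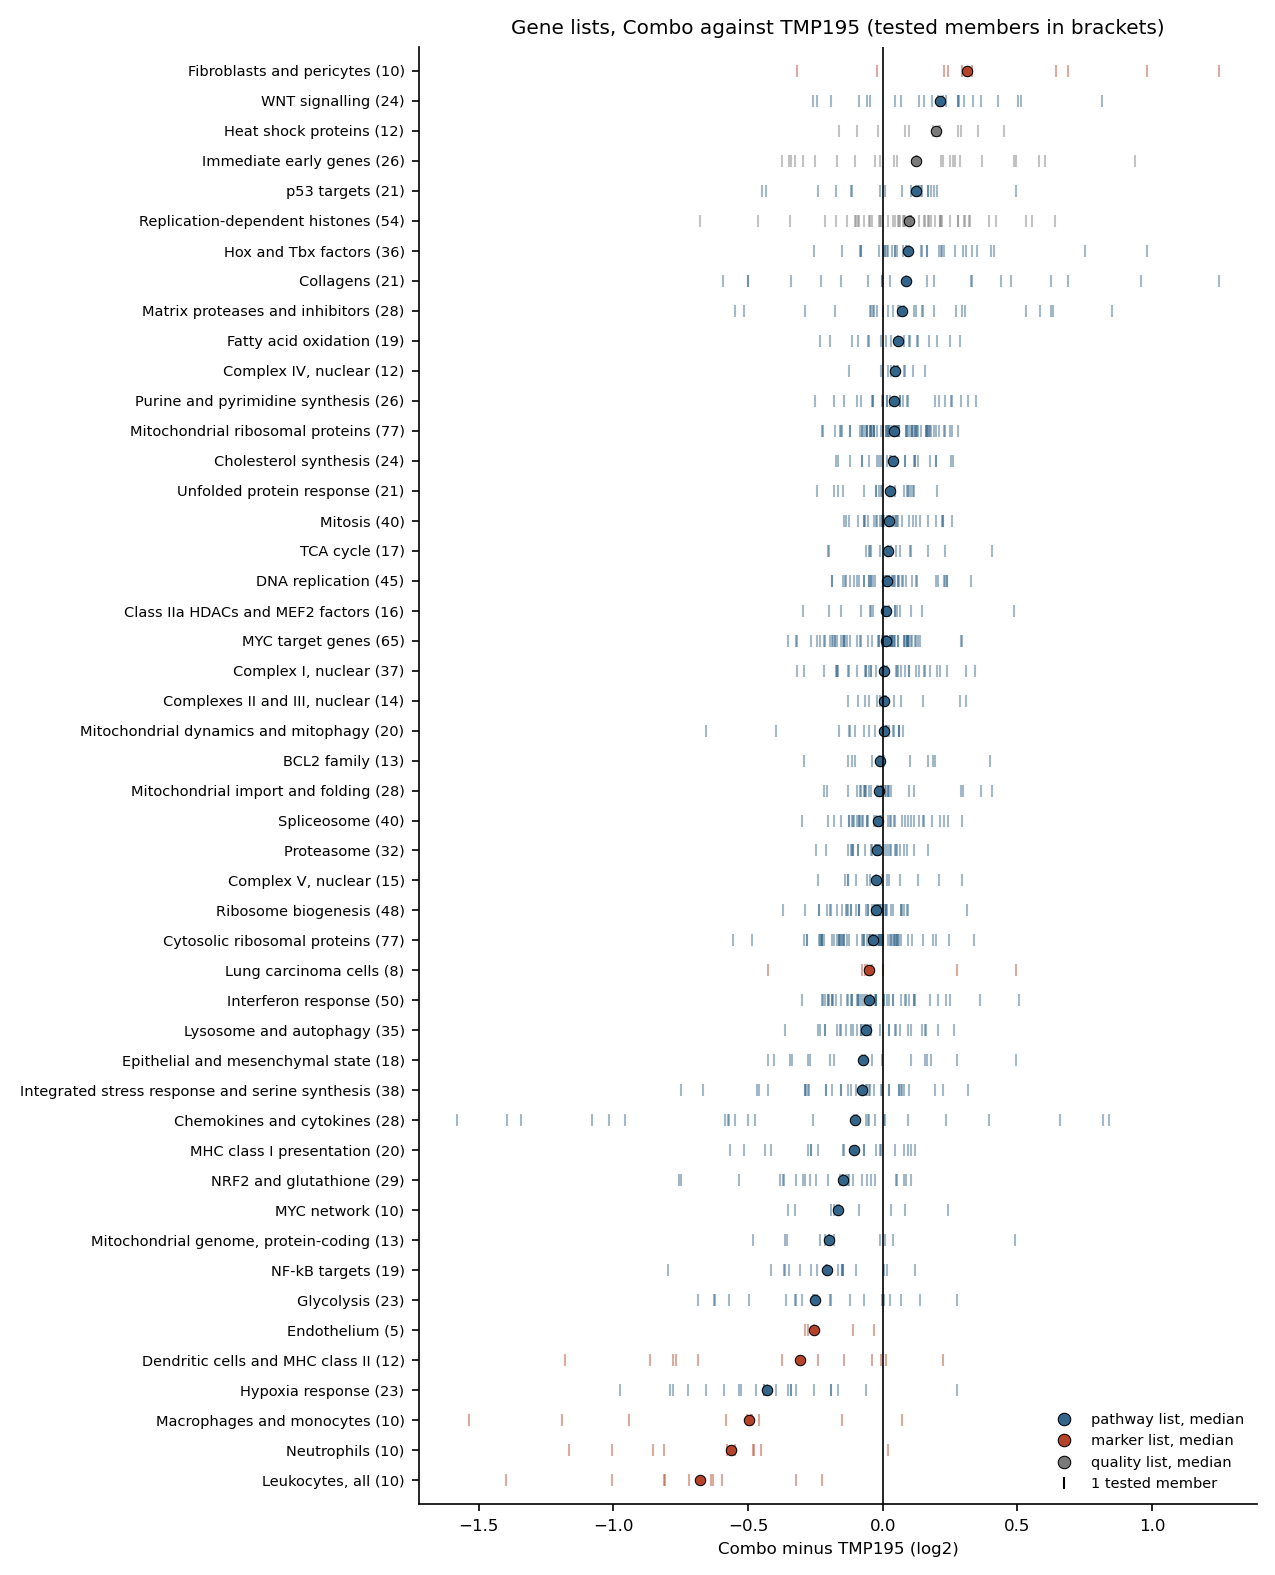
Combo minus TMP195 (log2, x axis) for each tested member (tick) and the list median (circle) of 48 gene lists with at least 5 tested members, ordered by median and coloured by kind of list. Leukocyte, neutrophil, macrophage and hypoxia lists lie at the low end with medians of -0.68, -0.56, -0.50 and -0.43, the fibroblast list at the high end at 0.31, and most metabolic and growth lists near 0.

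Leukocyte markers had the lowest median of the 48 lists. All 10 tested general leukocyte markers were lower in Combo (49.3% of all genes were), with a median of -0.68, or -0.64 over all 12 members in the table; 7 were at an unadjusted p under 0.05 (2.84% of all genes) and 2 without overlap (1.62%). Ptprc, the pan-leukocyte phosphatase CD45, was 6.64, 7.06, 5.81 and 7.10 in Combo and 8.95, 8.19, 7.30 and 7.77 in TMP195. The groups did not overlap and the difference was -1.40 ± 0.42 (SE, limma adjusted p = 0.633). In these bulk libraries fewer leukocytes and less RNA per leukocyte cannot be told apart.

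The list means show how far single libraries carried this. The mean of the 10 leukocyte markers was 6.38, 6.87, 6.43 and 6.64 in Combo and 8.08, 7.29, 6.69 and 7.13 in TMP195. The lowest TMP195 library, replicate 3, lay below the highest Combo library, replicate 2, and TMP195 replicate 1 was the highest of the 8 libraries for 9 of the 10 markers. The median was -0.39 without TMP195 replicate 1 and -0.90 without TMP195 replicate 3, the ends of the range over single libraries left out. In the libraries without TMP195 the mean was 6.82 in MYCi975 and 6.67 in Vehicle, so that Combo, at 6.58, lay near both. With the list mean as a covariate the difference was -0.80 for Cd93, -0.63 for Clec4a2, -0.78 for Ccl9, -0.68 for Cxcl3 and -0.38 for Ccl6. For Ptprc it was -0.31, but Ptprc is part of that mean, so a smaller difference was built in. In the same fit Car9 differed by -0.82, Gpcpd1 by -0.64 and Ror1 by 0.70.

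Myeloid markers made up most of what was detected. Lyz2, the lysozyme of macrophages and neutrophils, was 6.2, 7.84, 6.75 and 7.27 in Combo and 9.87, 8.81, 7.10 and 8.44 in TMP195, with overlap. Ccr2, the chemokine receptor of recruited monocytes, was 5.87, 6.15, 5.83 and 6.03 in Combo and 8.04, 7.32, 5.98 and 7.32 in TMP195, where TMP195 replicate 3 was at the Combo level. Without that library Ccr2 differed by -1.59 (adjusted p = 0.0304) and Csf1r, the receptor for macrophage colony stimulating factor, by -1.37 (adjusted p = 0.0211), and both were called. Csf1r was singled out after its values were seen.

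Of the 10 tested macrophage markers 9 were lower in Combo (49.3% of all genes were), 7 at an unadjusted p under 0.05 (2.84%). The 3 without overlap (1.62% of all genes) were Cd68, a lysosomal glycoprotein, at -0.49, Cd14, the co-receptor for lipopolysaccharide, at -0.58, and Apoe at -0.46. The complement genes C1qa, C1qb and C1qc, which mark resident macrophages, did not pass the filter. Of 10 tested neutrophil markers 9 were lower (49.3% of all genes were), with a median of -0.56. The lowest was S100a9, a subunit of calprotectin, at -1.17 (unadjusted p = 0.0627), and those with the smallest p were Mmp8, a granule collagenase, at -0.55, Csf3r, the receptor for granulocyte colony stimulating factor, at -0.85 and Cxcr2, the receptor for CXCL chemokines, at -0.58. With the leukocyte level as a covariate the neutrophil median was 0.14, with 2 of 10 lower, so its sign was not stable. The macrophage median with the covariate was -0.30, with 8 of 10 lower. Of 12 tested dendritic cell and MHC class II markers 10 were lower in Combo (49.3% of all genes were), with a median of -0.31. With the covariate their median was -0.12, with 8 of 12 lower. H2-Eb1 was 5.67, 5.90, 5.25 and 5.50 in Combo and 7.16, 6.24, 6.04 and 5.97 in TMP195, without overlap, H2-Aa differed by -0.78 and Cd74, the invariant chain, by -1.18. TMP195 replicate 1 was the highest library for each of these 3 genes. The Combo values of H2-Eb1, H2-Aa and Mmp8 lay near the lowest value of the table.

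**Figure D3:**
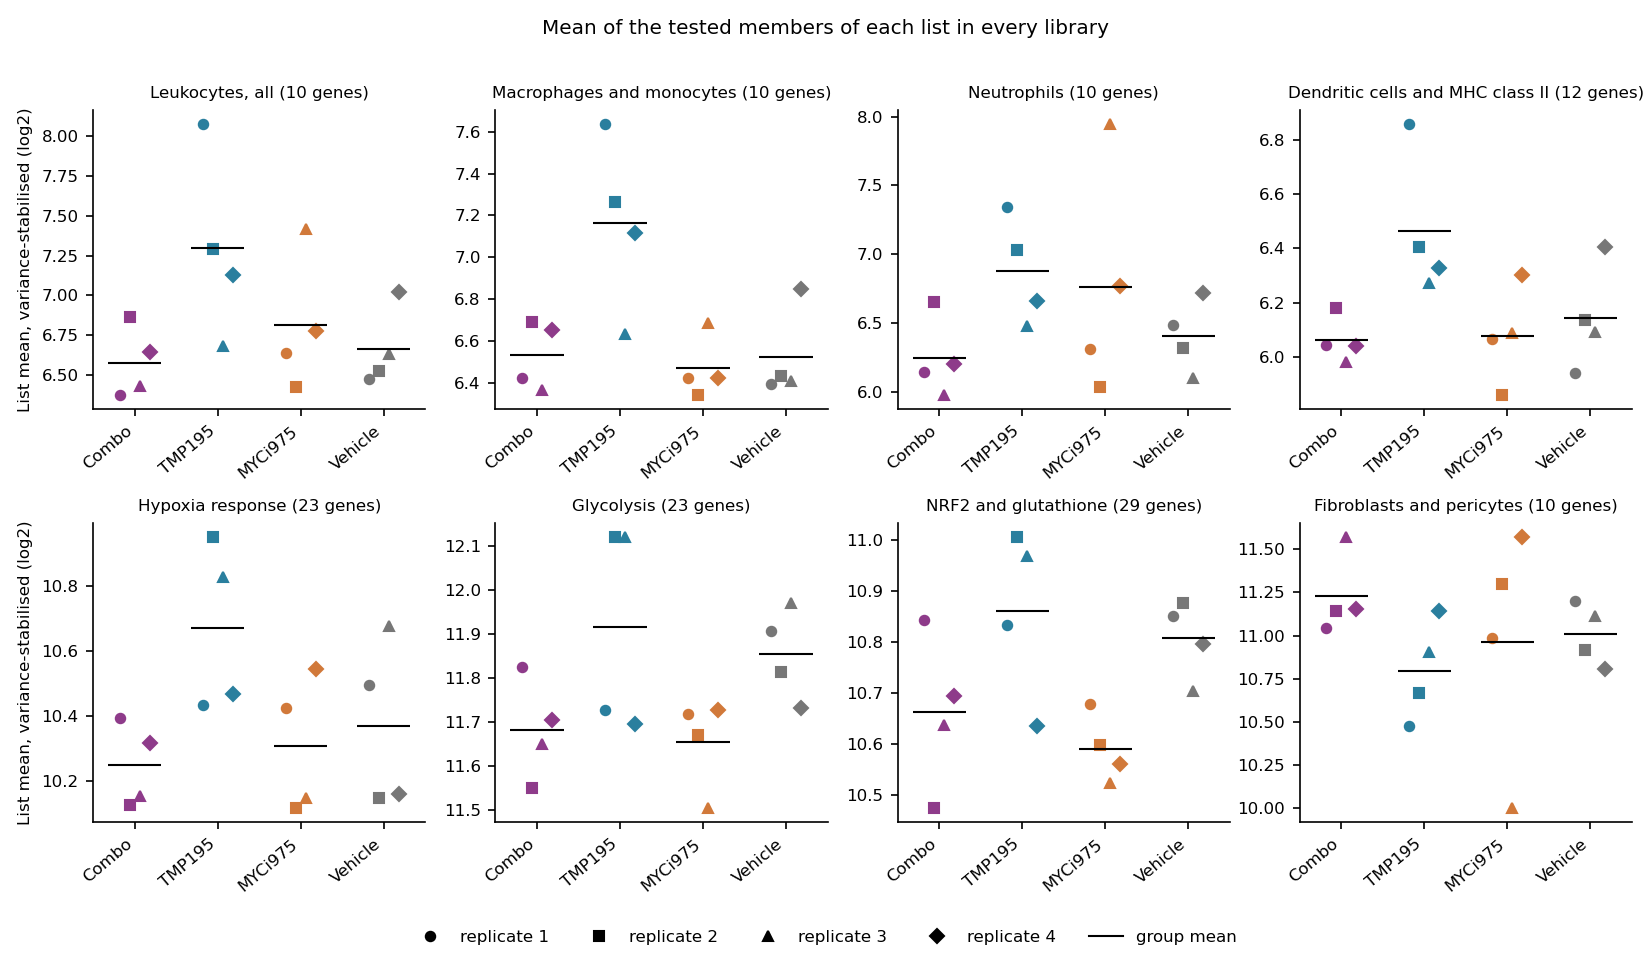
Mean variance-stabilised level (log2, y axis, scaled per panel) of the tested members of 8 gene lists in each library of the 4 groups, with a symbol per replicate and a line at the group mean. TMP195 replicate 1 is highest in the leukocyte, macrophage and dendritic cell panels and MYCi975 replicate 3 in the neutrophil panel, whereas TMP195 replicates 2 and 3 are highest in the hypoxia and glycolysis panels.

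Hypoxia-response genes were the pathway list with the lowest median. Cells short of oxygen stabilise HIF transcription factors, which bind short DNA elements with the core ACGTG and drive genes for pH control, glycolysis, blood vessel growth and mitophagy. Of 23 tested members 22 were lower in Combo, with a median of -0.43 (-0.40 over all 25 in the table); 12 were at an unadjusted p under 0.05 (2.84% of all genes) and 4 were without overlap (1.62%). The promoters of 3 members for which a RefSeq entry exists are shown because these genes are among those with the smallest p in the hypoxia and glycolysis lists; each line gives 250 bases before to 50 bases after the gene's start in GRCm38.p6, with ACGTG or GCGTG, on either strand, in capitals. Car9 is at chr4:43506776-43507075 on the plus strand, Bnip3 at chr7:138909457-138909756 on the minus strand and Slc16a3 at chr11:120948817-120949116 on the plus strand.
Car9: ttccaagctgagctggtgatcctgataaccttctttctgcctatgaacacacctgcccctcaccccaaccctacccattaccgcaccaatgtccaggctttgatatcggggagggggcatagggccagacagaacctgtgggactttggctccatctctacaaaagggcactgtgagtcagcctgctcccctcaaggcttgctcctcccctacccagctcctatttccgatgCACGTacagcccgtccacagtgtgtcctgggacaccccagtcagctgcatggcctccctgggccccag
Bnip3: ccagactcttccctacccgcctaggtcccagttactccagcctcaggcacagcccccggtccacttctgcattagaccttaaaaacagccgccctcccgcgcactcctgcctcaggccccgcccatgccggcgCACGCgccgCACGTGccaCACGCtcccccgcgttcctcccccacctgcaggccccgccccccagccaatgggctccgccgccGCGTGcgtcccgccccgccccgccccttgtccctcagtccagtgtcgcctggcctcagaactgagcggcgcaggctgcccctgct
Slc16a3: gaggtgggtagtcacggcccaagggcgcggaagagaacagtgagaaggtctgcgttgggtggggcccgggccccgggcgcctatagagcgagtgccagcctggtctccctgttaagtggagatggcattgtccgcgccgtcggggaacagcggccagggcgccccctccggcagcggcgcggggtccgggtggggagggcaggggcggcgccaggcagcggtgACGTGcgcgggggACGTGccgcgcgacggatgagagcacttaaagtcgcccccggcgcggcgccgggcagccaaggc
Car9, a carbonic anhydrase at the cell surface and a classical HIF target, holds 1 core, 18 bases before its start. Slc16a3, the lactate exporter MCT4, holds 2, and Bnip3 holds 5, a pair of which overlap as the E-box CACGTG that MYC and MAX also bind. Of the hypoxia list 17 of 23 tested members had a promoter in the table and 15 of them held a core (88.2%), beside 6382 of 10235 promoters of genes tested (62.4%). For MYC target genes the share was 87.9%, so the core did not set the hypoxia list apart. CACGTG was found in 1 of the 17 hypoxia promoters, 18 of 58 MYC target promoters and 1028 of the 10235 promoters of genes tested. A match describes letters only.

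Car9 was 6.72, 7.0, 6.46 and 6.92 in Combo and 7.75, 7.85, 7.52 and 7.88 in TMP195. The groups did not overlap, the difference was -0.97 ± 0.20 (SE, limma adjusted p = 0.325), and the MYCi975 and Vehicle groups averaged 6.88 and 6.83. Bnip3 was 11.69, 11.25, 11.30 and 11.23 in Combo and 11.82, 12.31, 12.29 and 11.68 in TMP195, where replicate 4 lay just below the highest Combo library. Ero1l, an oxidase of protein folding in the endoplasmic reticulum, was 13.01, 12.84, 12.84 and 13.01 in Combo and 12.98, 14.18, 14.05 and 13.65 in TMP195. TMP195 replicate 1 was at the Combo level for this gene, and the other 3 were higher.

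Secreted and oxygen-sensing members had the same direction. Adm, the vasodilator adrenomedullin, differed by -0.78 without overlap, Vegfa, the main growth factor of blood vessels, by -0.54, and Ndrg1, a stress-response gene, by -0.72. The HIF prolyl hydroxylases Egln3 and Egln1, which mark HIF for destruction, differed by -0.47 and -0.34, and the collagen prolyl hydroxylases P4ha2 and P4ha1 by -0.59 and -0.32. Pfkfb4, a regulator of glycolysis, was the single member higher in Combo, at 0.28.

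The list mean was 10.395, 10.127, 10.154 and 10.316 in Combo and 10.433, 10.952, 10.829 and 10.467 in TMP195. The groups did not overlap, but TMP195 replicates 1 and 4 exceeded Combo replicate 1 by little, and TMP195 replicate 2 was the highest of the 8 libraries for 16 of 23 members. The order of TMP195 libraries thus differed from that of the leukocyte markers, where replicate 1 was highest and replicate 3 lowest. With the leukocyte level as a covariate the hypoxia median was -0.55, without all libraries numbered 4 it was -0.49, and leaving out single libraries moved it between -0.49 and -0.33. MYCi975 minus Vehicle had a median of -0.07 for this list, with 16 of 23 lower (52.9% of all genes were). TMP195 minus Vehicle, which shares libraries with the comparison, had 0.26.

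Glycolytic genes overlap with this list in function and, through Pfkfb4, in membership. Of 23 tested members 18 were lower in Combo (49.3% of all genes were), with a median of -0.25, 7 at an unadjusted p under 0.05 (2.84%). Leaving out single libraries moved the median between -0.35 and -0.16, and the list means, 11.549 to 11.825 in Combo and 11.695 to 12.121 in TMP195, overlapped. Slc16a3 was 8.38, 8.09, 8.24 and 8.44 in Combo and 9.02, 9.48, 8.73 and 8.66 in TMP195, without overlap and with a difference of -0.69 ± 0.19 (SE, limma adjusted p = 0.580). Pgam1, phosphoglycerate mutase, also did not overlap, at -0.30.

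Leaving out TMP195 replicate 3 brought the glycolysis median to -0.16, and leaving out TMP195 replicate 4 to -0.35. Pfkp, the platelet phosphofructokinase, was 11.65, 11.11, 11.02 and 11.19 in Combo and 11.67, 12.40, 12.02 and 11.40 in TMP195. Pdk1, a kinase that inhibits pyruvate dehydrogenase, was 11.08, 11.08, 11.01 and 10.95 in Combo and 10.89, 11.90, 11.82 and 11.79 in TMP195. TMP195 replicate 1 lay below all Combo libraries and the other 3 TMP195 libraries above all of them. When TMP195 replicate 1 and MYCi975 replicate 3, the libraries highest in leukocyte markers, were left out, Pdk1 differed by -0.81 (limma adjusted p = 0.00463) and was the single gene called. Gapdh, at 0.01, and Tpi1, at -0.07, were close to 0, while the phosphofructokinase Pfkl differed by -0.36 and the glucose transporter Slc2a1 by -0.50.

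**Figure D4:**
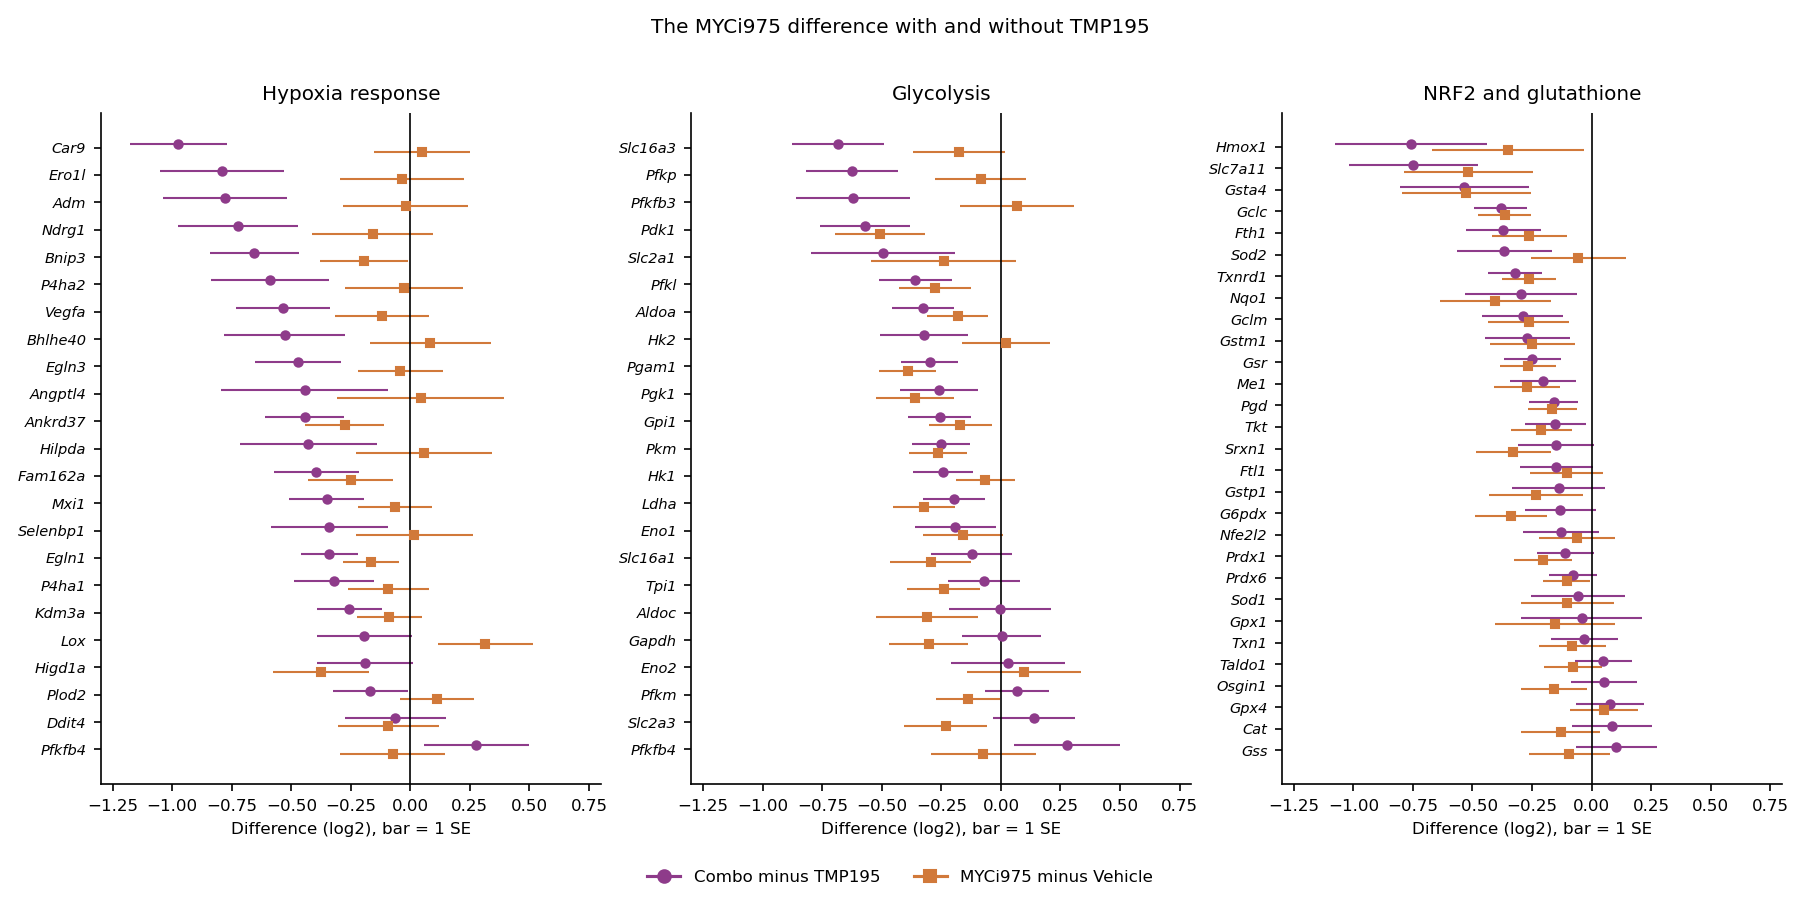
Difference (log2, x axis, with 1 SE) of each tested member of the hypoxia, glycolysis and NRF2 lists for Combo minus TMP195 (circles) and MYCi975 minus Vehicle (squares), which share no libraries. Hypoxia genes lie left of 0 for Combo minus TMP195 and nearer 0 for MYCi975 minus Vehicle, whereas most NRF2 genes lie left of 0 in both.

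The MYCi975 difference in the presence of TMP195 was then set beside that in its absence, in libraries that the comparison does not use. For MYCi975 minus Vehicle 0 genes were called and 476 were at an unadjusted p under 0.05 (3.03%). Across the 15715 genes the 2 differences were nearly unrelated, with Pearson's r = 0.048 and Spearman's rho = 0.073, and 52.5% of genes had the same sign. These are correlations across genes, which are not independent replicates. The interaction, which tests whether the MYCi975 difference depended on TMP195, called 0 genes, with 471 at an unadjusted p under 0.05 (3.0%). Of the 20 genes with the smallest p, 14 had the same sign in MYCi975 minus Vehicle, and for all 20 that difference was smaller in size. The selection of these genes on the first difference favours this.

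Some genes differed in both settings alike. Of the 837 genes at an unadjusted p under 0.05 for Combo minus TMP195, 512 had the same sign without TMP195 (61.2%), and 43 were at an unadjusted p under 0.05 in both, 37 of them with the same sign. When the 2 libraries highest in leukocyte markers were left out the same-sign share was 71.1% and r across genes 0.202, and without all libraries numbered 4 the share was 57.9% and r 0.004. Gclc, the catalytic subunit that starts glutathione synthesis, was 9.84, 9.49, 9.65 and 9.75 in Combo and 9.89, 10.23, 10.11 and 10.03 in TMP195, without overlap. It differed by -0.38 with TMP195 and by -0.36 without. Txnrd1, thioredoxin reductase, gave -0.32 with TMP195 and -0.26 without, Slc3a2, the heavy chain of the cystine and amino acid transporters, -0.29 and -0.29 in the same order, and Pdk1 -0.57 and -0.51. Genes of this paragraph other than Pdk1 were singled out after their values were seen.

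NRF2 is the factor that drives antioxidant and glutathione genes. As a list, 24 of 29 tested NRF2 targets were lower in Combo than in TMP195 (49.3% of all genes were). Their median was -0.15 (-0.15 over all 32 in the table), and 5 were lower at an unadjusted p under 0.05 (2.84% of all genes). The median was -0.27 without TMP195 replicate 4, -0.23 without Combo replicate 1 and -0.10 without Combo replicate 2. The list mean was 10.842, 10.474, 10.637 and 10.694 in Combo and 10.832, 11.005, 10.968 and 10.634 in TMP195, and the groups overlapped. Without TMP195, 28 of 29 were lower in MYCi975 than in Vehicle (52.9% of all genes were), with a median of -0.21. There the list means, 10.523 to 10.678 in MYCi975 and 10.704 to 10.876 in Vehicle, did not overlap. Slc7a11, the cystine importer that supplies glutathione, was 10.13, 8.95, 8.86 and 9.39 in Combo and 10.14, 10.36, 10.28 and 9.54 in TMP195. Combo replicate 1 was at the TMP195 level for Slc7a11. Hmox1, heme oxygenase, differed by -0.76, and Nfe2l2, which encodes NRF2, by -0.13.

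Other lists differed between the settings in their medians. The 24 enzymes of cholesterol synthesis had a median of 0.04 for Combo minus TMP195 and of -0.22 for MYCi975 minus Vehicle, where all 24 were lower. For mitosis the medians were 0.02 and -0.15, and for DNA replication 0.02 and -0.13, in the same order. For all 3 lists the MYCi975 and Vehicle list means overlapped, and Vehicle replicate 4 was the highest of these 8 libraries. It stood at 10.633 for cholesterol synthesis, where the other Vehicle libraries ran from 10.042 to 10.453 and MYCi975 from 9.996 to 10.324. For mitosis Vehicle replicate 4 stood at 10.839 and for DNA replication at 10.369. No member of these 3 lists was called for the interaction, and at an unadjusted p under 0.05 there were 0, 0 and 1 of them.

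**Figure D5:**
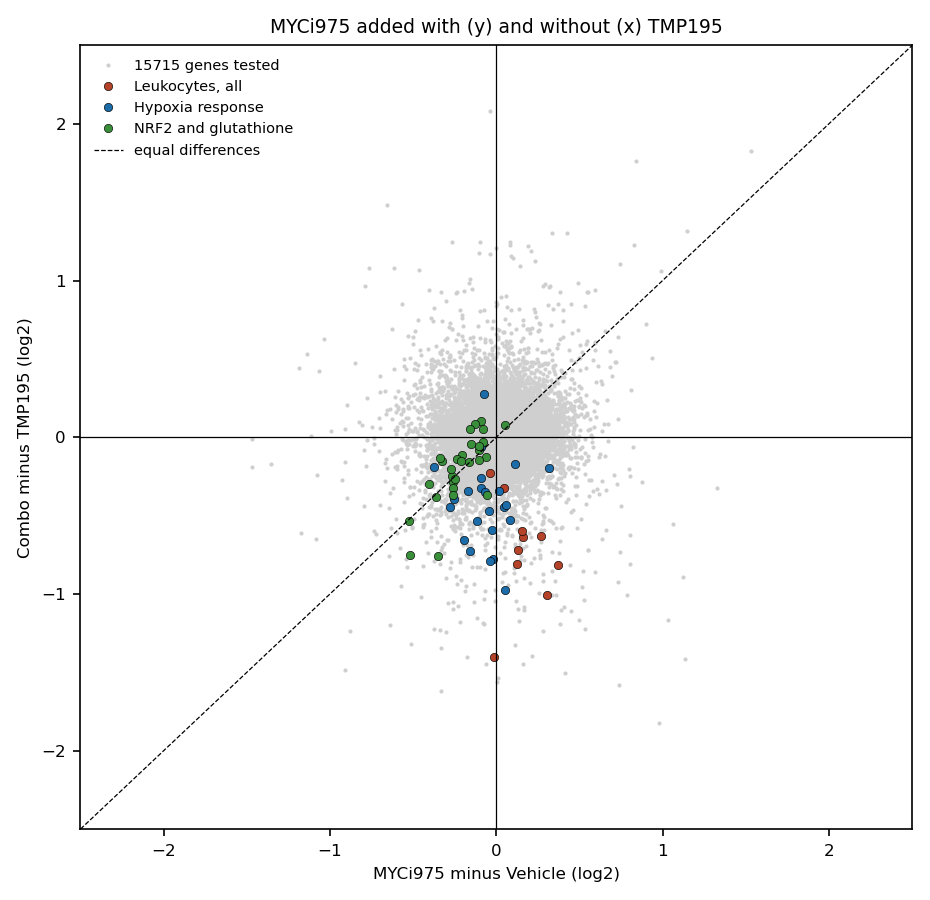
Combo minus TMP195 (log2, y axis) against MYCi975 minus Vehicle (log2, x axis) for all genes tested, with leukocyte, hypoxia and NRF2 lists in colour and a dashed line of equal differences; 1 gene lies outside the plotted range. Leukocyte and hypoxia genes extend downward near x = 0, and NRF2 genes extend along the dashed line.

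Chemokines and cytokines varied widely around a median of -0.10 (-0.18 over all 37 members in the table). The median was -0.51 without TMP195 replicate 4 and -0.38 without Combo replicate 1, and -0.04 without TMP195 replicate 1. Of 28 tested members 8 were at an unadjusted p under 0.05 (5.33% of all genes), 7 lower (2.84%) and 1 higher (2.49%) in Combo. Cxcl3 was 5.43, 5.57, 5.50 and 5.73 in Combo and 7.59, 7.25, 6.23 and 6.74 in TMP195, without overlap. Il1b, the inflammatory cytokine interleukin-1 beta, was 5.89, 7.05, 5.88 and 6.49 in Combo and 9.05, 7.94, 6.80 and 7.83 in TMP195, with overlap and a difference of -1.58 ± 0.68 (SE). Most Combo values of Cxcl3 and Il1b lay near the lowest value of the table, where variance stabilisation compresses differences. The same limit holds for the Combo values of Ccr2, Mmp8, H2-Eb1 and H2-Aa and for most of those of Ccl9. Cxcl5, which draws neutrophils, was 10.38, 8.94, 9.48 and 9.33 in Combo and 10.15, 11.32, 11.12 and 9.61 in TMP195, with overlap. The highest TMP195 libraries for Cxcl5 were thus those highest in hypoxia genes, and for Il1b the one highest in leukocyte markers. Of the 8 members higher in Combo, Tgfb3, a transforming growth factor, was the one without overlap, at 0.82.

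NF-kB targets had 16 of 19 tested members lower, with a median of -0.21 that ran from -0.32 without TMP195 replicate 4 to -0.14 without TMP195 replicate 2. Vcam1, an adhesion molecule for leukocytes, was 11.56, 11.43, 11.56 and 11.80 in Combo and 12.12, 12.50, 12.61 and 12.32 in TMP195. The groups did not overlap, and the difference was -0.80 ± 0.20 (SE, limma adjusted p = 0.561). Nfkb1, a subunit of NF-kB, differed by -0.21 and Sod2, a mitochondrial superoxide dismutase that NF-kB induces, by -0.37, both with overlap.

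Markers of matrix-producing cells lay mostly higher in Combo. Of 10 tested fibroblast and pericyte markers 8 were higher (50.7% of all genes were), with a median of 0.31 that was 0.48 without Combo replicate 1. With the leukocyte covariate the median was 0.14, with 4 of 10 lower. Col3a1, type III collagen, averaged 16.9 in Combo and 16.5 in TMP195 on the log2 scale. Lum, the matrix proteoglycan lumican, was 13.35, 13.48, 13.76 and 13.35 in Combo and 12.01, 12.45, 12.60 and 12.96 in TMP195, without overlap, with a difference of 0.98 ± 0.35 (SE, limma adjusted p = 0.787) that was 0.23 with the leukocyte covariate. Col1a1, a chain of type I collagen, differed by 1.25 with overlap and Postn, the matrix protein periostin, by 0.69. Pdgfrb, the receptor of pericytes, differed by -0.32.

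Of 21 tested collagens 12 were higher and 9 lower in Combo. In each direction 3 were at an unadjusted p under 0.05 (2.49% of all genes higher and 2.84% lower). Their median of 0.09 was -0.003 without TMP195 replicate 1, 0.19 without Combo replicate 1 and -0.10 with the leukocyte covariate. Col14a1, a fibril-associated collagen, was 7.12, 6.95, 7.83 and 7.24 in Combo and 5.79, 6.48, 6.39 and 6.65 in TMP195, without overlap, at 0.96. Col4a1, a chain of basement membrane collagen, was 12.55, 12.61, 12.35 and 12.73 in Combo and 13.56, 12.98, 12.92 and 13.15 in TMP195, without overlap, at -0.59. Col4a2, its partner chain, was also without overlap at -0.34. Endothelial markers, another source of basement membrane, had a median of -0.26 over 5 tested members, none at an unadjusted p under 0.05. It was -0.14 without TMP195 replicate 4 and -0.08 without all libraries numbered 4. Flt1, a VEGF receptor, differed by -0.29, Cdh5, the endothelial cadherin, by -0.28 and Vwf by -0.26, each with overlap. Their part in the collagen values was not tested.

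WNT signalling and patterning genes leaned the other way. Of 24 tested WNT members 18 were higher in Combo, with a median of 0.21 (0.10 over all 37 in the table). Beside Ror1, the receptor Fzd2 was higher by 0.50 without overlap, at 7.09, 7.0, 7.39 and 7.06 in Combo and 6.67, 6.97, 6.56 and 6.32 in TMP195, and Lef1, a transcription factor of the canonical pathway, by 0.51 with overlap. Of 36 tested Hox and Tbx factors 29 were higher, with a median of 0.09. Tbx2, a T-box repressor, was 7.29, 7.65, 7.95 and 7.84 in Combo and 6.34, 6.61, 6.92 and 6.93 in TMP195, without overlap, at 0.98 ± 0.25 (SE).

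Further lists of stress and immune genes had smaller medians. The median was -0.05 for 50 interferon response genes, -0.11 for 20 genes of MHC class I presentation, -0.08 for 38 genes of the integrated stress response and serine synthesis and 0.03 for 21 of the unfolded protein response. Of the MHC class I genes 15 of 20 were lower in Combo. Their median was -0.22 without TMP195 replicate 4 and -0.03 without TMP195 replicate 1. With the leukocyte covariate it was 0.18, with 5 of 20 lower, so its sign was not stable. The interferon median ran from -0.20 without TMP195 replicate 4 to 0.13 without TMP195 replicate 1 and was 0.46 with the leukocyte covariate, so it had no stable sign. Trib3, a pseudokinase induced by stress, was the integrated stress response member without overlap, at -0.47. Among lists that can follow handling of the sample, heat shock proteins had a median of 0.20 and immediate early genes of 0.12, with Egr1 at 0.60 and Egr3 at 0.58. Combo replicate 4 was the highest of the 8 libraries for 11 of 12 heat shock and 12 of 26 immediate early members, and without it the medians were 0.06 and -0.05. The immediate early median was 0.28 without Combo replicate 3. Their part in the other differences was not tested.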

How the data were processed

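The authors deposited 1 table of variance-stabilised values on a log2-like scale for 24334 genes in 16 libraries; the tool behind the stabilisation is not given in the sources used here. Salmon, with no version, and the build hg38 are named, per the submitters' processing notes, although samples and identifiers are mouse, so the files' coordinates are unknown; per the labels' protocols, libraries were made with a stranded total RNA kit. Symbols were matched by identifier without version (23150, 95.13%) and gene types came from GENCODE M21. The values hold no counts, so depth is unknown.

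limma 3.58.1 (R 4.3.3) fitted the deposited log2 values of the 4 groups together, with an intensity trend; the contrasts were Combo minus TMP195, MYCi975 minus Vehicle and their difference (interaction). P-values are two-sided, adjusted by Benjamini and Hochberg over 15715 genes, and called under 0.05. The fit was tested on simulated data. Of 53 gene lists, which had no test, 48 held at least 5 tested members. Members and lists were chosen with earlier results of these data known. Named genes are Myc, Max, Hdac4, Hdac5, Hdac7, Hdac9 and Ptprc, the 10 smallest p in each direction (predicted symbols left out), and up to 3 members from each of the 10 lists with the largest absolute median; further list members illustrate their list. Sequences come from RefSeq promoters of GRCm38.p6.

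Replicate numbers were not used as pairs, since same-numbered Combo and TMP195 libraries did not all deviate together. Alternatives were filters, moderation, normalisation, weights, a replicate block, a leukocyte covariate, only the 8 libraries compared, protein-coding genes, and leaving out libraries.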

Additional observations from a re-analysis of the deposited data

Results flagged for a closer look

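In groups of 4 libraries, a value was set out here when its gap to the nearest of the others was large for the range of the group by Dixon's criterion, which chance meets in about 1 in 20 groups; 11 of 204 groups met it (5.4%). Among named genes these were Ccl9, at 6.92 in Combo replicate 2 against 5.61 to 5.78 in the other Combo libraries and at 7.91 in TMP195 replicate 1 against 7.13 to 7.26, Bnip3, at 11.69 in Combo replicate 1 against 11.23 to 11.30, and Nfkb1, at 11.96 in Combo replicate 1 against 11.66 to 11.67. Pdk1 was at 10.89 in TMP195 replicate 1 against 11.79 to 11.90 in the other TMP195 libraries.

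Among list means, 4 concerned TMP195 replicate 4. Of the TMP195 libraries it was lowest in BCL2 family genes at 9.187, in NF-kB targets at 9.852 and in WNT genes at 8.161, and highest in endothelial markers at 7.632. TMP195 replicate 1 was highest in the lung carcinoma markers at 10.742, and Combo replicate 2 was lowest in cytosolic ribosomal proteins at 12.371.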

How the results depend on the processing

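No gene was called in most settings. With array quality weights 65 were called, with the 2 libraries highest in leukocyte markers left out 1 (Pdk1), and without an intensity trend 1 (Cd93, adjusted p = 0.0487); on leaving out 1 library in turn the count ran from 0 to 2, with Cd93 called without Combo replicate 4 (adjusted p = 0.0381) and Csf1r and Ccr2 without TMP195 replicate 3. Genes at an unadjusted p under 0.05 numbered 1840 with weights (838 higher, 1002 lower) and 1340 with no filter (614 higher, 726 lower, more genes being tested), and the stricter filter left 274 lower, fewer genes being tested. On leaving out 1 library they ran from 560 to 1013, from 257 to 417 higher and from 303 to 608 lower. For MYCi975 minus Vehicle the count called ran from 0 to 1 on leaving out 1 library. The sign of Max turned to -0.03 without libraries numbered 4, -0.06 with weights and -0.079 with the leukocyte covariate, of Hdac5 to 0.034 without the leukocyte-high libraries and 0.107 with the covariate, and of Hdac7 to -0.044, -0.037 and -0.019 without the leukocyte-high libraries, without libraries numbered 4 and with weights. With the covariate Lcp1, which is part of the covariate, was at 0.033, Csf3r at 0.001 and Postn at -0.075. On leaving out 1 library Max ran from -0.054 to 0.116, Hdac5 from -0.173 to 0.034 and Hdac7 from -0.044 to 0.093. The cause was not tested. Of 1110 single-gene values, 1067 kept direction and side of the threshold, and 105 of 1008 list medians took the other sign. With the replicate block 0 genes were called and 1005 were at an unadjusted p under 0.05 (483 higher, 522 lower). Same-numbered Combo and TMP195 libraries correlated between -0.008 and 0.263 in their deviations and 5 of 8 correlated best with their own number, a hint from the data. Over all pairs of groups these correlations ran from 0.202 to 0.428 for libraries numbered 1 and from 0.172 to 0.387 for those numbered 4. For numbers 2 and 3 they ran from -0.24 to 0.244. Depth is unknown, so no detection limit can be given.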

Other observations

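Further genes differed alike when MYCi975 was added with and without TMP195. Adamts7, a matrix metalloprotease, differed by -0.83 for Combo minus TMP195 and by -0.54 for MYCi975 minus Vehicle, and Adamts3, a procollagen protease, by 0.60 and 0.54 in the same order. Il1rap, the shared co-receptor of the interleukin-1 family, gave -0.45 and -0.44, Spry4, an inhibitor of receptor tyrosine kinase signalling, 0.45 and 0.34, and Zbp1, a sensor of nucleic acids, 0.50 and 0.50. None was called in either comparison by limma, and all were chosen after their values were seen.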
